A study of Arabidopsis thaliana with 87 samples.

Results

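WRKY factors are plant transcription factors, and the family is described here through 75 Arabidopsis thaliana genes of the 5 nuclear chromosomes whose deposited description contains the word WRKY. They are 75 of 27444 protein-coding genes in the deposited expression table. The rule read the description alone, but the family was chosen with earlier results of these data known. A hand-written table of the classical WRKY groups, from general knowledge of the family, placed 71 of them: 13 in group I, 3 in IIa, 8 in IIb, 18 in IIc, 7 in IId, 8 in IIe and 14 in III. The other 4 (AT1G64140, AT3G32090, AT3G56390 and AT5G46310) carry a WRKY description without a number and were given no group.

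The WRKY domain carries a zinc finger and binds W-box elements in promoters. Group I proteins hold a pair of such domains, and groups II and III a single one. Many members are induced within minutes to hours by pathogen signals, wounding or abiotic stress, and they activate or repress defence, salicylate, senescence and nutrient genes. Several act downstream of the mitogen-activated protein (MAP) kinases MPK3 and MPK6, and some repress each other or their own genes.

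The study followed seedlings that were 7 days old, grown with 16 h of light per day on medium with sucrose and placed in darkness when the light period ended. In 2HS and 9HS they spent 2 h or 9 h in argon, which removes oxygen (hypoxia). In 1R and 2R, 2 h in argon was followed by 1 h or 2 h back in air, and in 2NS and 9NS the seedlings stayed in air and darkness for 2 h or 9 h. The series held 87 samples in 35 groups and 11 assays. The 2HS and 2NS groups shared 2 h of darkness and the 9HS and 9NS groups 9 h, so each pair differed in the argon atmosphere. Hours of darkness were not available for 1R and 2R.

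Nuclear RNA and poly(A)+ RNA came from a line with pUBQ10:NTF and pACT2:BirA, in which nuclei carry a tag driven by a ubiquitin promoter. Nuclear RNA was taken from affinity-purified nuclei after removal of ribosomal RNA. Translating ribosome affinity purification (TRAP) pulled down ribosomes, and the RNA on them, by a FLAG tag on ribosomal protein L18 (p35S:RPL18-FLAG). Chromatin immunoprecipitation (ChIP) of H3K4me3, H3K27me3, H3K9ac, H3K14ac and of RNA polymerase II phosphorylated on serine 2 (Ser2P, the elongating form) used Col-0. H2A.Z was recovered from a pHTA11:HTA11-3XFLAG line. HRE2, an ERF factor of group VII, was recovered after 2 h of hypoxia from a line with p35S:C2A HRE2-HA, so it was overexpressed. ATAC-seq, which maps open chromatin, used root tissue of the nucleus-tagging line, and all other assays used whole seedlings. Transgene promoters therefore set the cells in which tagged nuclei, ribosomes and HRE2 were sampled.

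RNA, Ser2P and H3K4me3 groups held 3 libraries, and the other groups 2. The libraries, as recovered, held 1.05 to 16.6 M reads for nuclear RNA, 8.66 to 20.96 in poly(A)+ RNA, 2.53 to 12.4 in TRAP and 2.69 to 20.2 in the ChIP assays. RPKM is reads per kilobase of gene and per M reads of the library, where M stands for 1000000. The authors' columns are means over libraries. Values of single libraries below are scaled RPKM, that is, RPKM multiplied so that the median gene has a ratio of 1 between libraries and groups of an assay. Some nuclear and poly(A)+ libraries stood apart here. In nuclear RNA the deepest 2HS and 2NS libraries needed factors of 3.22 and 4.50 within their group, against 0.55 to 1.16 for the other 4 libraries. In poly(A)+ RNA the 9NS library of 9.35 M reads needed 3.08, the 2HS library of 12.21 M reads 2.44, and the 9HS group as a whole a factor of 2.94. Of the hypoxia checks, the LOB-domain factor gene LBD41 stood at 1933 scaled RPKM in TRAP of 2HS and at 26.9 in 2NS. The leaf gene LHCB1.3 was at 2977 scaled RPKM or more in every RNA group. Of the root markers, CASP1 was detected in every RNA group, while EXPA7 was at 0 in poly(A)+ RNA of 9HS. In whole seedlings, fewer cells of a type and less RNA per cell cannot be told apart.

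A change is the difference in log2(scaled RPKM + 1) between groups, with its standard error from limma. "Rose", "fell" and "passed" refer to limma's test with Benjamini-Hochberg adjustment over all genes tested and a threshold of 0.05. The p-values measure the spread between these libraries, which may be technical, since nothing states that they came from separate cultures. Genes with a mean under 1 RPKM over the groups of an assay were not tested, nor were those whose reads per library could not be resolved.

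Levels differed widely within the family. In all 13 RNA columns, 21 of the 75 genes stayed under 1 RPKM (28.0%, against 30.0% of all protein-coding genes), and 27 reached 10 RPKM in at least 1 column (where 33.4% of all genes did). The highest authors' mean was 175 RPKM, for WRKY40 in nuclear RNA of 9HS, followed by 94.3 RPKM for WRKY33 in TRAP of 2HS, 58.6 RPKM for WRKY22 in nuclear RNA of 9HS and 50.1 RPKM for WRKY6 in TRAP of 2HS. WRKY64, AT3G56390 and AT5G46310 were listed at 0 in every RNA column. Group IIc, whose members include regulators of development, had 10 of 18 genes under 1 RPKM throughout and none at 10 RPKM. In group IId, which holds calmodulin-binding WRKY proteins, 6 of 7 reached 10 RPKM and none stayed under 1 RPKM.

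Many low members carried H3K27me3, the mark of Polycomb repression, and so did many members of middle RNA level. In 2NS the authors' mean H3K27me3 had a median of 19.3 RPKM over the 75 genes, against 4.5 RPKM over all protein-coding genes. The 75th percentile of all genes was 16.2 RPKM, and 40 of the 75 (53.3%) lay above it. All 8 genes of group IIb and 16 of 18 of group IIc did so, against 2 of 13 in group I and 1 of 7 in group IId. The median was 66.4 RPKM in the 21 genes under 1 RPKM in RNA, of which 16 lay above the 75th percentile. It was 56.5 RPKM in the 27 genes whose highest RNA value was 1 to under 10 RPKM, of which 17 did. In the 27 genes that reached 10 RPKM the median was 4.07 RPKM. WRKY62, a repressor of basal defence, had the highest value of the family, at 149 RPKM. Spearman's rho between H3K27me3 and TRAP RNA in 2NS was -0.48 across the 75 genes and -0.3 across all protein-coding genes; genes are not independent replicates, and both measures share gene length. Of the 27 genes that reached 10 RPKM, 7 lay above the 75th percentile: WRKY65 (67.3 RPKM of H3K27me3 in 2NS), WRKY29 (50.2), WRKY47 (48.8), WRKY6 (43.4), WRKY70 (43.25), WRKY40 (18.6) and WRKY17 (17.1).

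**Figure D1:**
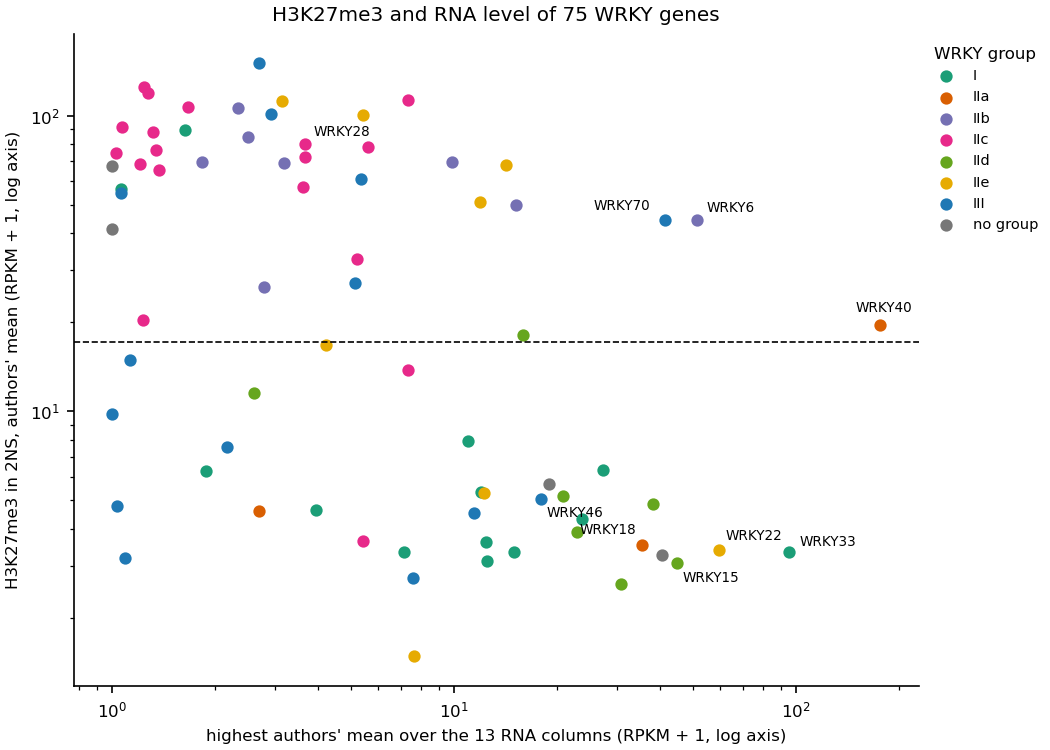
H3K27me3 in 2NS (authors' mean RPKM + 1, log axis) against the highest authors' mean over the 13 RNA columns (RPKM + 1, log axis) for the 75 WRKY genes, coloured by WRKY group. The dashed line marks the 75th percentile of all protein-coding genes, 16.2 RPKM; 40 genes lie above it, and WRKY70, WRKY6 and WRKY40 combine such a value with high RNA.

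After 2 h of hypoxia a subset of stress-related WRKY genes had more RNA at all levels measured. WRKY46 and WRKY70 of group III and WRKY22 of group IIe rose in nuclear, poly(A)+ and TRAP RNA. WRKY40 and WRKY33 rose in nuclear and poly(A)+ RNA, and WRKY6, WRKY7, WRKY11, WRKY17, WRKY21, WRKY27 and WRKY75 rose by smaller amounts in poly(A)+ RNA. Of these, WRKY17 and WRKY27 lost their calls under 11 and 10 of 15 omissions of 1 library (largest adjusted p = 0.171 without the 2HS library of 15.3 M reads, and 0.161 without the 2NS library of 12.82 M reads). In nuclear RNA 41 of the 75 passed the filter and were tested; 6 rose and 1 fell (4 passed without the 2HS library of 3.04 M reads), where 2.69% of all genes tested rose and 0.622% fell. Poly(A)+ RNA had 12 of 26 that rose and none that fell, where 5.3% of all genes rose and 7.01% fell. In TRAP RNA 15 of 35 rose and 2 fell, where 13.3% rose and 13% fell; without the 2NS library of 8.96 M reads or the 2HS library of 3.09 M reads 11 WRKY genes passed in all. In the scaled authors' means, 10 of 41, 6 of 26 and 12 of 43 genes were at least 2-fold higher in nuclear, poly(A)+ and TRAP RNA, where 11.2%, 2.86% and 6.13% of all genes were. The median difference of these means was 0.55, 0.52 and 0.60 on the log2 scale, against 0.00, 0.01 and 0.00 over all genes. Genes that passed the filter through 2HS alone had to be higher there, so these counts describe the genes and support nothing by themselves. Without scaling, the median gene moved by -0.57 in nuclear RNA and 0.34 in poly(A)+ RNA, and 2 genes rose and none fell in nuclear RNA, 4 rose and none fell in poly(A)+ RNA.

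**Figure D2:**
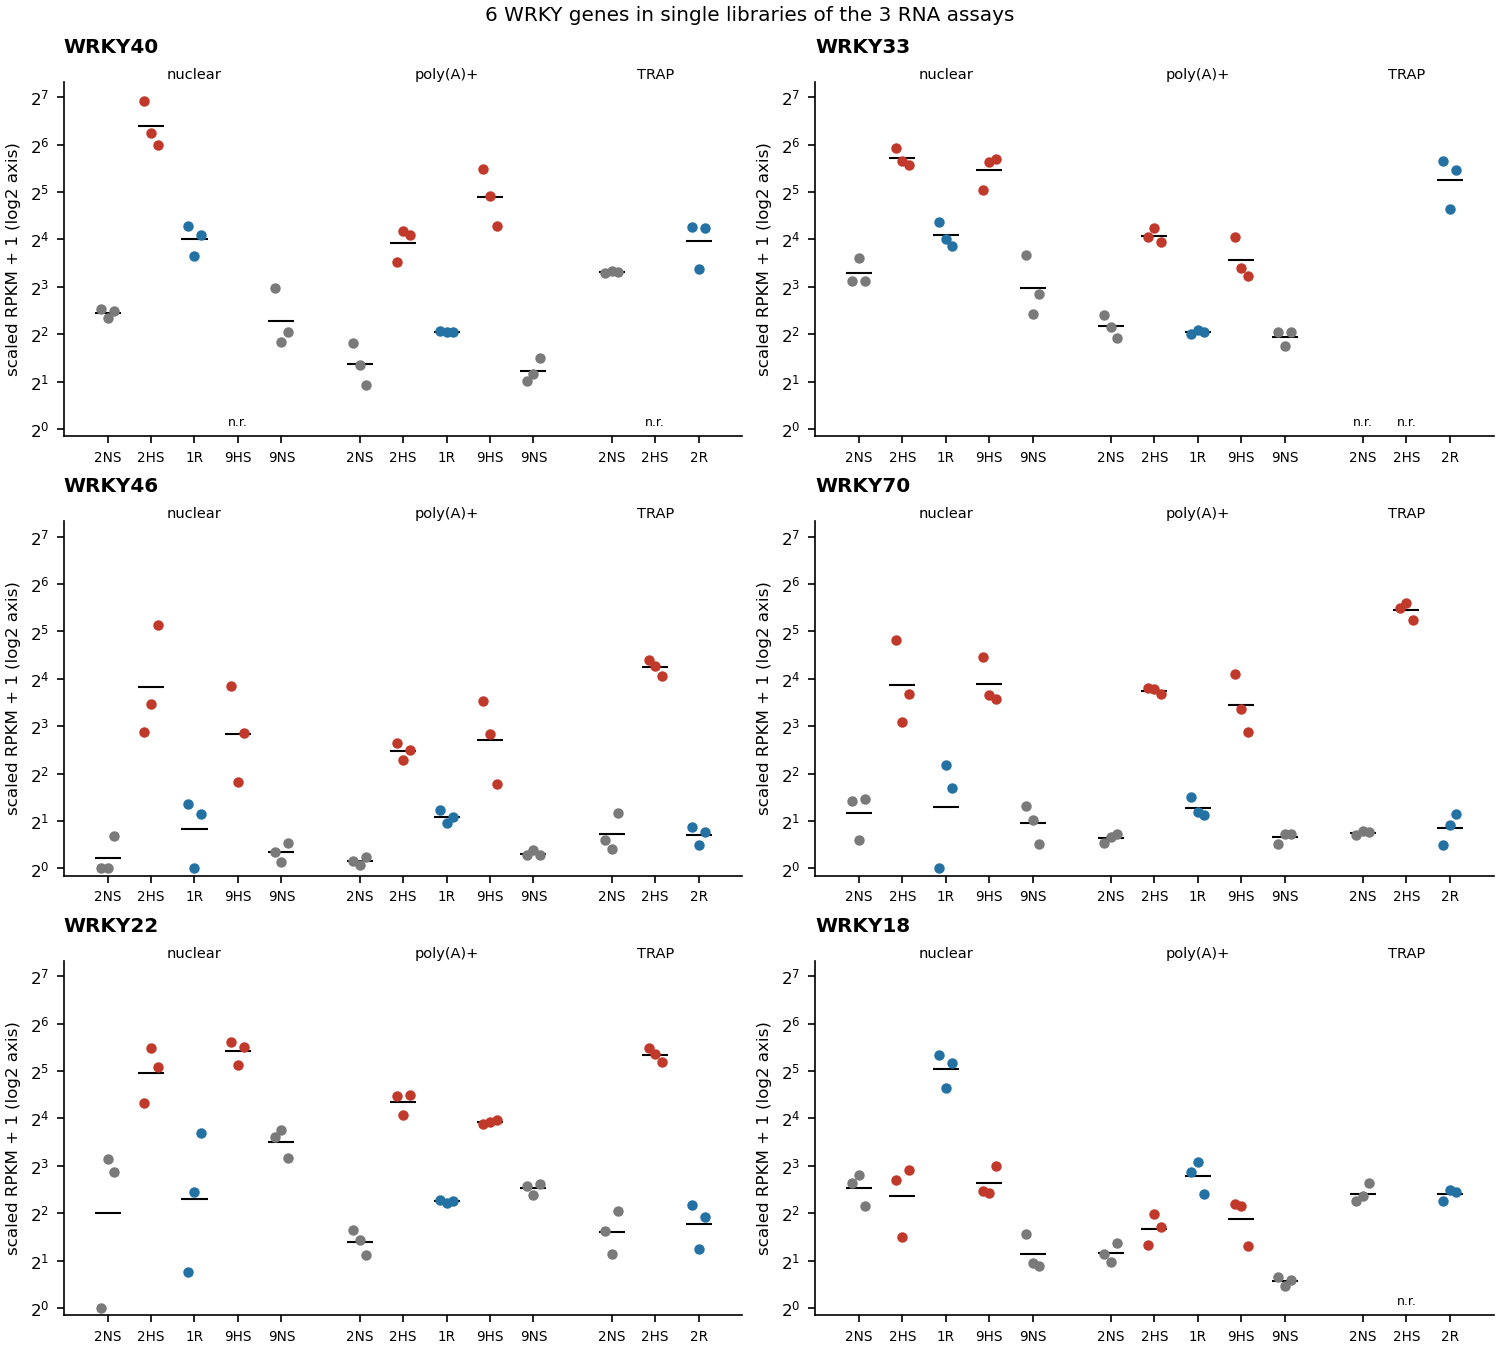
Scaled RPKM + 1 (log2 axis) of 6 WRKY genes in each library of nuclear, poly(A)+ and TRAP RNA; points are libraries, short lines are means on the log scale, grey is air, red hypoxia and blue reoxygenation, and n.r. marks groups whose libraries could not be resolved. WRKY40, WRKY33, WRKY46, WRKY70 and WRKY22 are high in hypoxia and lower after reoxygenation in the groups drawn, while WRKY18 is highest at 1R in nuclear and poly(A)+ RNA.

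Group IIa holds WRKY18, WRKY40 and WRKY60, which act together in defence and abscisic acid responses. WRKY40 (AT1G80840) had 120, 74.8 and 62.3 scaled RPKM in the nuclear 2HS libraries, against 4.78, 4.05 and 4.61 in the 2NS libraries. Its poly(A)+ RNA stood at 10.6, 17.0 and 16.1 in 2HS and 2.50, 1.56 and 0.890 in 2NS. All hypoxic libraries lay above all control libraries in both assays. The changes were 3.93 ± 0.36 (adjusted p = 2.27e-06) and 2.57 ± 0.26 (adjusted p = 2.54e-06) in limma's test. In TRAP RNA the authors' mean was 54.5 RPKM in 2HS and 8.81 RPKM in 2NS. The reads of its 2HS libraries had 2 possible solutions, and limma's change passed with both, at 2.24 and 2.54 (largest adjusted p = 0.00276).

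WRKY18 (AT4G31800) behaved differently between the assays. Its nuclear RNA was 5.49, 1.81 and 6.56 scaled RPKM in 2HS, against 5.22, 6.02 and 3.45 in 2NS; the groups overlapped, with a change of -0.16 ± 0.43 (adjusted p = 0.915 in limma's test). Its change in poly(A)+ RNA was 0.51 ± 0.23 (adjusted p = 0.172). In TRAP RNA its authors' mean was 34.5 RPKM in 2HS and 4.30 RPKM in 2NS. Its 2HS libraries had 2 possible solutions there, with changes of 1.99 and 2.82, of which 1 passed limma's test (adjusted p = 1.02e-07) and the other did not (adjusted p = 0.0714). WRKY60 was under the filter in the 3 RNA assays, with a highest authors' mean of 1.68 RPKM.

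In group I, WRKY33 (AT2G38470) is a target of MPK3 and MPK6 that activates camalexin synthesis and resistance to necrotrophic fungi. It had 60.1, 49.0 and 46.4 scaled RPKM in nuclear RNA of 2HS, against 7.75, 11.2 and 7.66 in 2NS. Its poly(A)+ RNA was 15.6, 17.8 and 14.4 in 2HS, against 4.31, 3.47 and 2.80 in 2NS. The groups did not overlap, and the changes were 2.43 ± 0.33 (adjusted p = 9.39e-05) and 1.91 ± 0.18 (adjusted p = 1.18e-06) in limma's test. In TRAP RNA its authors' mean was 94.3 RPKM in 2HS and 33.45 RPKM in 2NS, and 6 of 12 possible sets of reads passed. WRKY25 and WRKY26, which act with WRKY33 in heat tolerance, rose in TRAP RNA by 0.69 ± 0.22 (adjusted p = 0.0333) and 0.98 ± 0.24 (adjusted p = 0.0106). The call for WRKY25 was lost under 5 of 9 omissions (adjusted p = 0.0992 without the 2NS library of 8.96 M reads). WRKY25 was at -0.09 ± 0.42 in nuclear and 0.21 ± 0.13 in poly(A)+ RNA, where it did not pass. WRKY3, another group I gene linked to necrotroph resistance, fell in nuclear RNA: 7.16, 2.93 and 4.99 scaled RPKM in 2HS, against 16.6, 14.3 and 15.7 in 2NS. That call (change -1.51, adjusted p = 0.0352) was lost under 6 of 15 omissions of 1 library, with an adjusted p of 0.151 without the 2HS library of 3.04 M reads.

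Group III held the largest rise in ribosome-bound RNA among the WRKY genes tested. WRKY70 (AT3G56400), a regulator between the salicylate and jasmonate pathways, had 43.9, 47.8 and 36.8 scaled RPKM in TRAP RNA of 2HS, against 0.622, 0.727 and 0.706 in 2NS. Poly(A)+ RNA stood at 12.9, 12.7 and 11.8 in 2HS and 0.453, 0.579 and 0.664 in 2NS. The change was 4.69 ± 0.18 in TRAP RNA (adjusted p = 3.57e-09), 3.11 ± 0.21 in poly(A)+ RNA (adjusted p = 3.8e-08) and 2.70 ± 0.57 in nuclear RNA (adjusted p = 0.0077). The nuclear call was lost without the 2HS library of 2.12 M reads, at 2.22 (adjusted p = 0.067).

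WRKY46 (AT2G46400), a salicylate-responsive gene, was near 0 in control libraries and present in all hypoxic ones. In TRAP RNA it had 20.1, 18.4 and 15.7 scaled RPKM in 2HS, against 0.513, 0.338 and 1.24 in 2NS. In nuclear RNA it had 6.39, 10.1 and 34.1 in 2HS, against 0, 0 and 0.598 in 2NS. The changes were 3.52 ± 0.21 in TRAP, 3.61 ± 0.62 in nuclear and 2.33 ± 0.28 in poly(A)+ RNA (adjusted p = 2.47e-07, 0.00113 and 1.51e-05). WRKY38, a repressor of basal defence, rose in TRAP RNA by 2.32 ± 0.25 (adjusted p = 3.64e-05), with 7.12, 4.05 and 2.80 scaled RPKM in 2HS and 0.258, 0 and 0 in 2NS. WRKY53, a regulator of leaf senescence, was at 0.27 ± 0.25 (adjusted p = 0.455) in TRAP RNA. WRKY30 fell there by 0.55 ± 0.19 on the log2 scale (adjusted p = 0.0448), with 0.221, 0.856 and 0.549 scaled RPKM in 2HS and 1.24, 1.09 and 1.34 in 2NS. The call for WRKY30 was lost under 8 of 9 omissions of 1 library, with an adjusted p of 0.161 without the 2HS library of 3.09 M reads.

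In group IIe, WRKY22 (AT4G01250) and WRKY29 lie downstream of the MAP kinase cascade that flagellin triggers. WRKY22 had 44.1, 39.8 and 35.6 scaled RPKM in TRAP RNA of 2HS, against 2.07, 1.21 and 3.14 in 2NS, and 21.1, 15.8 and 21.4 in poly(A)+ RNA of 2HS, against 2.11, 1.72 and 1.16 in 2NS. The groups were far apart in both assays. Its changes were 3.74 ± 0.25 (adjusted p = 7.76e-07), 2.94 ± 0.14 (adjusted p = 5.86e-10) and, in nuclear RNA, 2.96 ± 0.66 (adjusted p = 0.0123). The nuclear call was lost under 2 of 15 omissions, with an adjusted p of 0.0977 without the 2NS library of 2.22 M reads, which held no WRKY22 read. WRKY29 did not pass in TRAP RNA, with 11.6, 11.2 and 12.0 scaled RPKM in 2HS and 9.82, 7.91 and 7.72 in 2NS (change 0.42 ± 0.15, adjusted p = 0.0532).

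The remaining groups had smaller changes. In group IIb, WRKY6, a senescence and phosphate regulator, rose in poly(A)+ RNA by 0.88 ± 0.15 (adjusted p = 5.89e-04). Its TRAP mean was 50.1 RPKM in 2HS and 15.1 RPKM in 2NS, and both possible sets of reads passed, at 1.64 and 1.74. In group IIc, WRKY75, which is induced by phosphate starvation, rose in poly(A)+ RNA (1.12 ± 0.22, adjusted p = 0.00222) and in TRAP RNA (1.62 ± 0.25, adjusted p = 5.9e-04). Its nuclear RNA was lower in hypoxia without passing (change -0.64), with scaled means of 0.269 RPKM in 2HS and 1.92 RPKM in 2NS. WRKY45, another gene of the phosphate starvation response, was at 0.45 ± 0.24 in poly(A)+ and -0.46 ± 0.25 in TRAP RNA and did not pass. In group IId, WRKY11, a repressor of basal resistance, rose in TRAP RNA, where it had 33.9, 27.6 and 33.8 scaled RPKM in 2HS and 9.42, 9.07 and 11.1 in 2NS (1.59 ± 0.20, adjusted p = 1.3e-04). Of the IId genes, 4 of 6 tested in poly(A)+ RNA rose, by 0.54 to 0.78. WRKY15 did not pass in any RNA assay at 2 h. AT3G32090 (in no group) rose in nuclear RNA by 2.19 ± 0.51 (adjusted p = 0.0158; 0.0975 without the 2NS library of 3.02 M reads) and in TRAP RNA by 2.50 ± 0.24 (adjusted p = 1.31e-05).

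**Figure D3:**
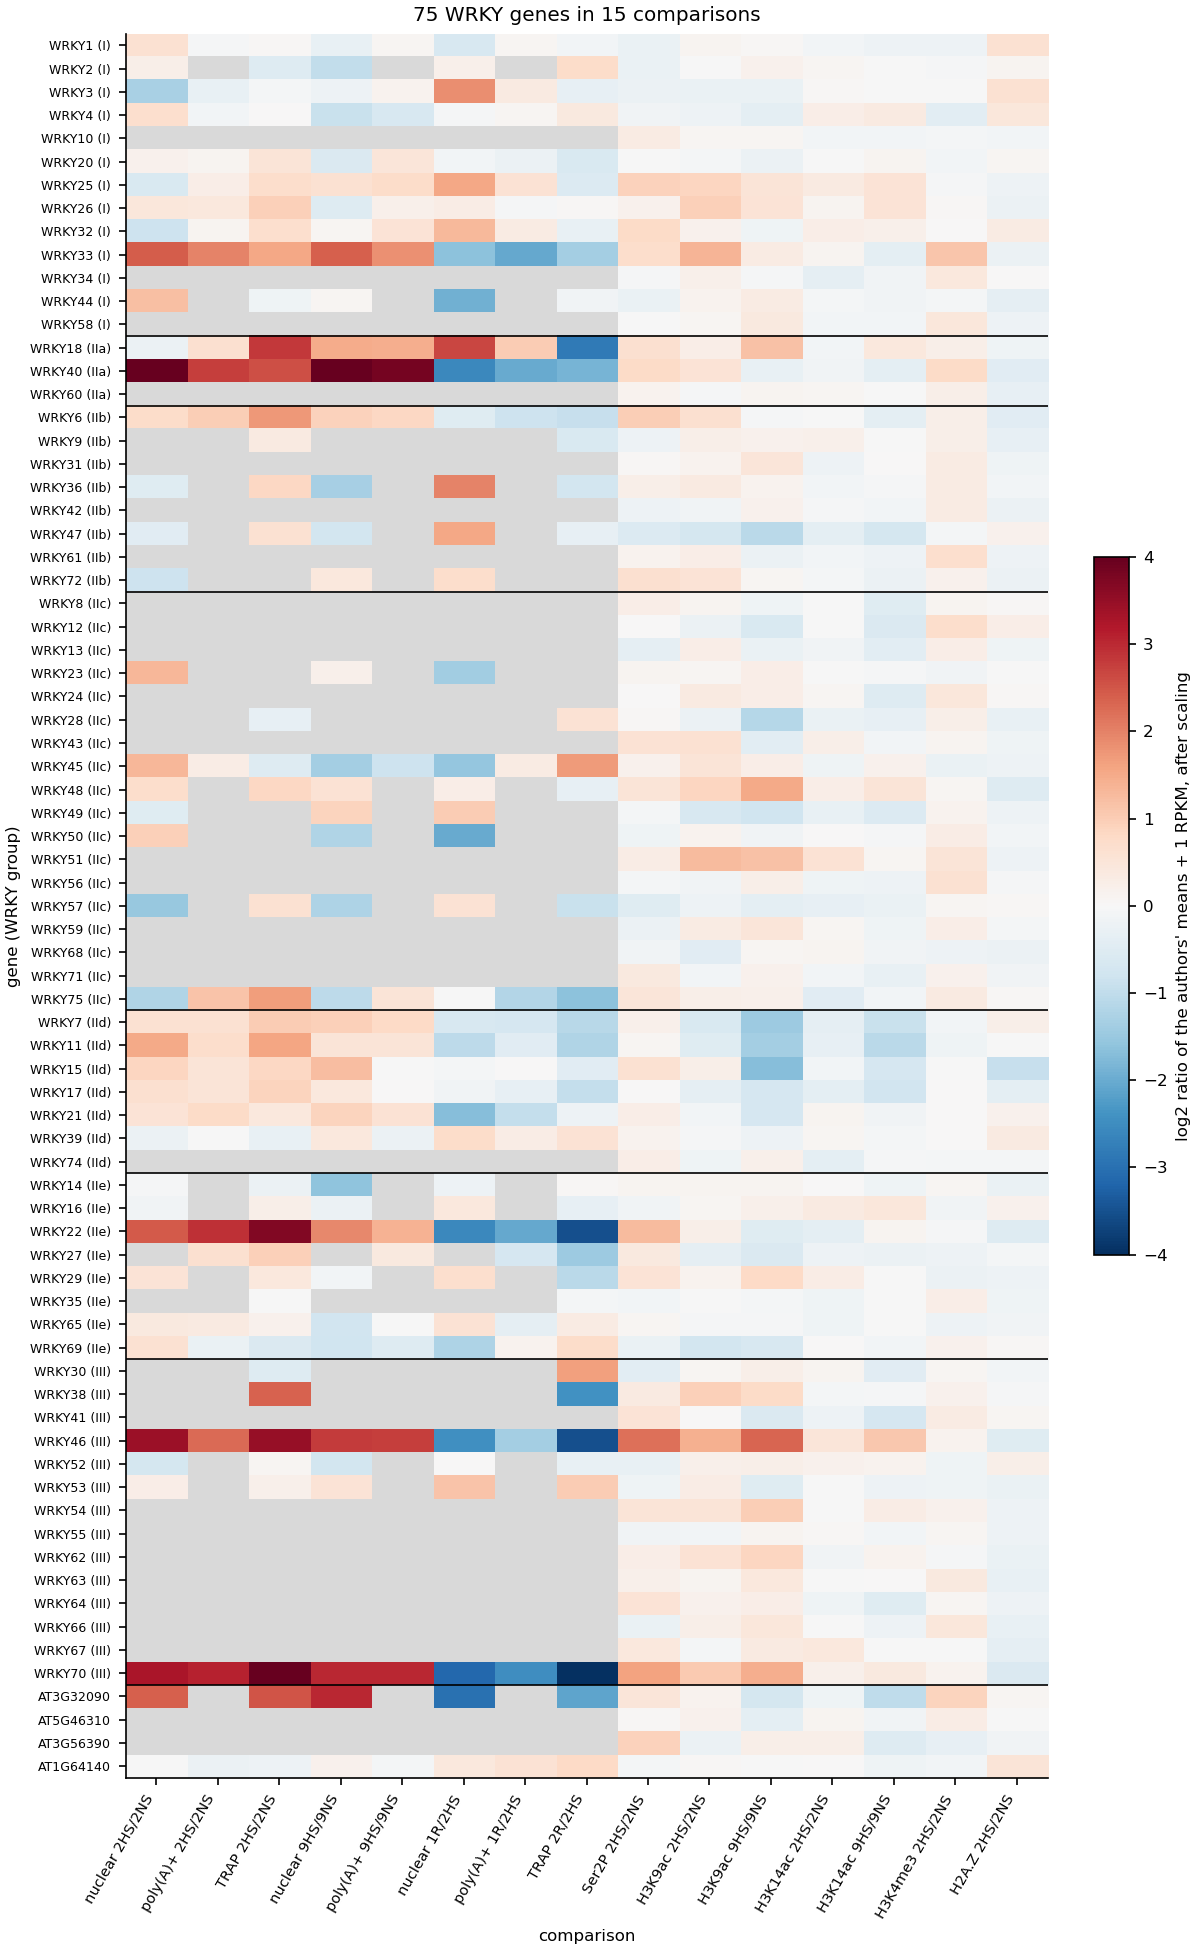
Difference between groups for the 75 WRKY genes (rows, by WRKY group) in 15 comparisons (columns), as the log2 ratio of the authors' means + 1 RPKM after scaling; red is higher in the group named before the slash, colours end at 4 in size, and grey marks genes under the filter in that assay. WRKY40, WRKY46, WRKY70, WRKY22 and WRKY33 form red cells in the RNA columns of hypoxia and blue cells in those of reoxygenation, while WRKY7, WRKY11, WRKY15 and WRKY17 of group IId, which passed for both acetylation marks at 9 h, are blue there.

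Partners and targets of WRKY factors were followed in a list of 29 genes: MAP kinases, VQ proteins that bind WRKY factors, target genes, and salicylate regulators. The list was chosen with earlier results of these data known. In nuclear RNA at 2 h, 3 of 21 tested rose and none fell, where 2.69% and 0.622% of all genes did; these were the kinase genes MKK9 (2.39 ± 0.39, adjusted p = 7.85e-04), MKK4 (1.89 ± 0.39, adjusted p = 0.00687) and MPK3 (1.80 ± 0.34, adjusted p = 0.00304). Of 15 tested in poly(A)+ RNA none rose and 1 fell (5.3% and 7.01% of all genes did), JAV1, a VQ repressor of jasmonate defence (-0.76 ± 0.19, adjusted p = 0.0122). In TRAP RNA 10 of 20 rose and none fell, where 13.3% and 13% of all genes did. The largest rises there were those of SARD1 (2.10 ± 0.27, adjusted p = 1.22e-04) and CBP60G (2.02 ± 0.27, adjusted p = 1.65e-04), activators of salicylate synthesis, whose enzyme gene ICS1 rose by 0.84 ± 0.17 (adjusted p = 0.003). The camalexin gene PAD3, a target of WRKY33, was not among those that passed at 2 h.

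Ser2P measured elongating polymerase on the gene bodies. No WRKY gene of 45 tested passed, nor did any of 16614 genes (0%). At an unadjusted p under 0.05 there were 0 WRKY genes and 616 genes in all. WRKY40, WRKY33, WRKY46, WRKY70, WRKY22, WRKY18, WRKY6 and WRKY25 were not among those tested, because their libraries were not resolved. The test therefore says nothing about these genes. In the authors' means 3 of the 75 were at least 2-fold higher in 2HS (4.03% of all genes were). These were WRKY46, with 41.0 RPKM in 2HS and 8.74 RPKM in 2NS, WRKY70, with 38.7 RPKM in 2HS and 13.0 RPKM in 2NS, and WRKY22, with 34.8 RPKM in 2HS and 15.05 RPKM in 2NS. Their libraries could not be resolved, so no error can be given.

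With all libraries in the fit, H3K9ac was the only chromatin measure with calls at WRKY genes at 2 h. H3K9ac also gave the most calls over all genes. Of 75 tested, 13 rose and 4 fell, where 7.04% of all genes rose and 5.58% fell; 10 passed without the 2NS library of 11.26 M reads and 11 without the 2HS library of 8.73 M reads. Group III gave 5 of its 14 genes and group I 3 of its 13. WRKY46 had 42.7 and 40.4 scaled RPKM in 2HS, against 15.1 and 14.7 in 2NS, and WRKY33 had 41.6 and 46.6, against 16.8 and 16.1. The 2 libraries of each hypoxic group lay well above both control libraries. The changes were 1.42 ± 0.11 (adjusted p = 3.43e-05) and 1.37 ± 0.11 (adjusted p = 4.34e-05). WRKY51 (1.26 ± 0.19), WRKY70 (1.06 ± 0.14), WRKY26 (0.95 ± 0.15), WRKY38 (0.94 ± 0.19), WRKY25 and WRKY48 (0.86 each) followed, with adjusted p from 7.49e-04 to 0.00716 in limma's test; that of WRKY38 was 0.0758 without the 2NS library of 11.26 M reads. WRKY40 rose by 0.55 ± 0.14 (adjusted p = 0.0299; 0.19 without the 2NS library of 11.3 M reads). WRKY22 did not pass, at 64.1 and 61.2 scaled RPKM in 2HS and 50.7 and 54.9 in 2NS (0.24 ± 0.16, adjusted p = 0.38). The genes that fell were WRKY69, WRKY47, WRKY49 and WRKY7, by 0.60 to 0.72 on the log2 scale; WRKY7 and WRKY49 lost their calls under 4 of 8 omissions each (0.182 without the 2NS library of 11.26 M reads, and 0.171 without that of 10.57 M). In the list of 29 partners and targets, 13 of 28 rose and none fell, where the shares over all genes are those given above.

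The other marks gave no call at 2 h. None of 75 genes passed for H3K14ac, none of 75 for H2A.Z, none of 56 for H3K4me3 and none of 74 for H3K27me3. The H3K4me3 test left out WRKY33, WRKY40, WRKY22 and WRKY18, whose libraries were not resolved. Over all genes 0.877%, 0.0756%, 0% and 0% passed. At an unadjusted p under 0.05 there were 16, 10, 2 and 3 WRKY genes, and 4409, 3044, 1278 and 1090 genes in all. For H3K4me3 the authors' mean of WRKY33 was 41.3 RPKM in 2HS and 18.1 RPKM in 2NS, the only WRKY gene at least 2-fold apart in that mark, and its libraries were not resolved (0.892% of all genes were 2-fold apart). For H3K27me3 4 of 74 were 2-fold apart, where 12.9% of all genes were. For H2A.Z the lowest adjusted p was that of WRKY15 (-0.91 ± 0.18, adjusted p = 0.102), with an authors' mean of 7.30 RPKM in 2HS and 14.8 RPKM in 2NS. The counts for H2A.Z and H3K27me3 depended on single 2HS libraries, while those for H3K14ac and H3K4me3 were 0 under every omission of 1 library. Without the 2HS library of 10.03 M reads 22 genes passed for H2A.Z, without that of 5.48 M 2 did, and without the 2HS library of 5.17 M reads 10 passed for H3K27me3. The median H2A.Z difference of the 75 genes was -0.16, against 0.00 over all genes.

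After 9 h of hypoxia WRKY40, WRKY70, WRKY46, WRKY33, WRKY22 and WRKY18 rose in poly(A)+ RNA on the scaled values; WRKY33 and WRKY22 were lower in 9HS without scaling (-0.40 and -0.75). In poly(A)+ RNA 14 of 25 tested rose and 3 fell, where 19.8% of all genes rose and 20.3% fell. WRKY40 had 43.8, 29.2 and 18.6 scaled RPKM in 9HS, against 1.01, 1.23 and 1.82 in 9NS. WRKY70 had 16.2, 9.33 and 6.33 in 9HS, against 0.426, 0.647 and 0.656 in 9NS. No hypoxic library overlapped the controls for either gene, and the changes were 3.68 ± 0.26 (adjusted p = 1.38e-08) and 2.79 ± 0.21 (adjusted p = 3.48e-08). WRKY46 (2.40 ± 0.28), WRKY33 (1.61 ± 0.18), WRKY22 (1.40 ± 0.14) and WRKY18 (1.32 ± 0.23) rose too, with adjusted p of 2.03e-04 or less. WRKY45, WRKY4 and WRKY69 fell, by 0.79, 0.54 and 0.46 on the log2 scale; WRKY45 did not pass without the 9HS library of 12.75 M reads (-0.52, adjusted p = 0.0828), nor WRKY69 without that of 8.66 M (adjusted p = 0.0948). In the scaled means 6 of 26 genes were 2-fold apart (20 without scaling), where 11.5% of all genes were.

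This poly(A)+ comparison depends on the scaling more than any other. The authors' values of the median gene were 2.57 lower in 9HS on the log2 scale, and without scaling 2 genes rose and 14 fell instead. The deposited mean of WRKY40 was 11.5 RPKM in 9HS and 2.91 RPKM in 9NS, that of WRKY33 was 4.20 RPKM in 9HS and 5.55 RPKM in 9NS, and that of WRKY22 was 4.74 RPKM in 9HS and 9.38 RPKM in 9NS. Unscaled, WRKY40 and WRKY46 still passed as higher in 9HS (adjusted p = 0.0164 and 0.0233), while WRKY70 (0.0611) and WRKY18 (0.952) did not pass. The seedling markers moved with this comparison as well. In poly(A)+ RNA the 3 root markers CASP1, EXPA7 and PRP3 were at 3.13, 0 and 0.607 scaled RPKM in 9HS, against 9.04, 1.66 and 6.73 in 9NS, and the leaf gene LHCB1.3 was at 3084 against 9945. Their part in the result was not tested.

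In nuclear RNA at 9 h, 5 of 39 WRKY genes rose and none fell, where 3.07% of all genes rose and 1.63% fell. Leaving out any 9NS library, or the 9HS library of 2.18 or 8.88 M reads, left 3, and leaving out the 1R library of 1.05 M reads gave 9. WRKY33 had 31.8, 48.4 and 51.0 scaled RPKM in 9HS, against 11.7, 4.37 and 6.23 in 9NS (2.47 ± 0.33, adjusted p = 1.4e-04). AT3G32090 (3.07 ± 0.51, adjusted p = 0.00112) and WRKY70 (2.95 ± 0.57, adjusted p = 0.00374) rose by more. WRKY46 (2.50 ± 0.62, adjusted p = 0.022) lost its call under 5 of 15 omissions, with an adjusted p of 0.135 without the 9HS library of 2.18 M reads. WRKY18 (1.5 ± 0.43, adjusted p = 0.0467) lost it under 10 of 15, with an adjusted p of 0.171 without the 9NS library of 6.40 M reads. WRKY40 had an authors' mean of 175 RPKM in 9HS and 5.58 RPKM in 9NS, and 17 of 18 possible sets of reads passed. WRKY22 was at 47.9, 34.1 and 44.2 scaled RPKM in 9HS and 11.3, 12.5 and 7.96 in 9NS without passing (1.90 ± 0.66, adjusted p = 0.112).

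At 9 h H3K9ac moved both ways within the family, at shares near those of all genes, and no test compared the WRKY groups. For H3K9ac 13 of 75 rose and 15 fell (17.3% and 20.0%), where 15.4% of all genes rose and 16.8% fell. Group III had 5 genes that rose and 1 that fell, while group IId had none that rose and 5 of 7 that fell; the counts of higher and lower were 3 and 1 in group I, 1 and 1 in IIb, 2 and 4 in IIc and 1 and 3 in IIe. WRKY46 reached 71.6 and 73.3 scaled RPKM in 9HS, against 14.02 and 13.0 in 9NS (2.34 ± 0.11, adjusted p = 1.03e-06). WRKY48, a repressor of basal defence, had 52.0 and 49.1, against 15.6 and 18.4 (1.52 ± 0.13, adjusted p = 1.18e-05). WRKY70 and WRKY18 rose by 1.46 ± 0.14 and 1.17 ± 0.11.

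WRKY15 of group IId had 10.5 and 14.2 scaled RPKM of H3K9ac in 9HS, against 45.3 and 38.8 in 9NS (-1.70 ± 0.16, adjusted p = 1.99e-05). WRKY7 and WRKY11 fell by 1.46 ± 0.15 and 1.37 ± 0.14 on the log2 scale (adjusted p = 3.89e-05 and 3.64e-05), and WRKY17 and WRKY21 by 0.69 and 0.66. Outside IId, WRKY28 of group IIc and WRKY47 of group IIb fell by 1.15 ± 0.10 and 1.07 ± 0.12 on the log2 scale. In poly(A)+ RNA of the same comparison, WRKY7, WRKY11 and WRKY21 rose by 0.77, 0.60 and 0.60 on the scaled values, and without scaling they were at -1.12, -1.19 and -1.36. With centring on the median gene after the log instead, they were at 0.36, 0.30 and 0.12. None of them passed limma's test then (adjusted p = 0.0841, 0.142 and 0.637), so their rise in RNA depends on the scaling. H3K14ac gave 7 genes that rose and 10 that fell, where 17.3% rose and 6.06% fell; without scaling these were 3 and 15, and 7 or 8 genes passed in all without either 9NS library or without the 9HS library of 8.36 M reads. WRKY46 rose by 1.10 ± 0.15 (adjusted p = 5.65e-04), and the IId genes WRKY11, WRKY7, WRKY17 and WRKY15 fell by 1.10, 0.87, 0.76 and 0.67 on the log2 scale. WRKY15 had 7.25 and 7.49 scaled RPKM of H3K14ac in 9HS and 11.95 and 12.75 in 9NS. The H3K14ac calls of WRKY15 and WRKY17 were lost without the 9HS library of 8.36 M reads (adjusted p = 0.0966) and the 9NS library of 6.55 M reads (adjusted p = 0.0517).

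**Figure D4:**
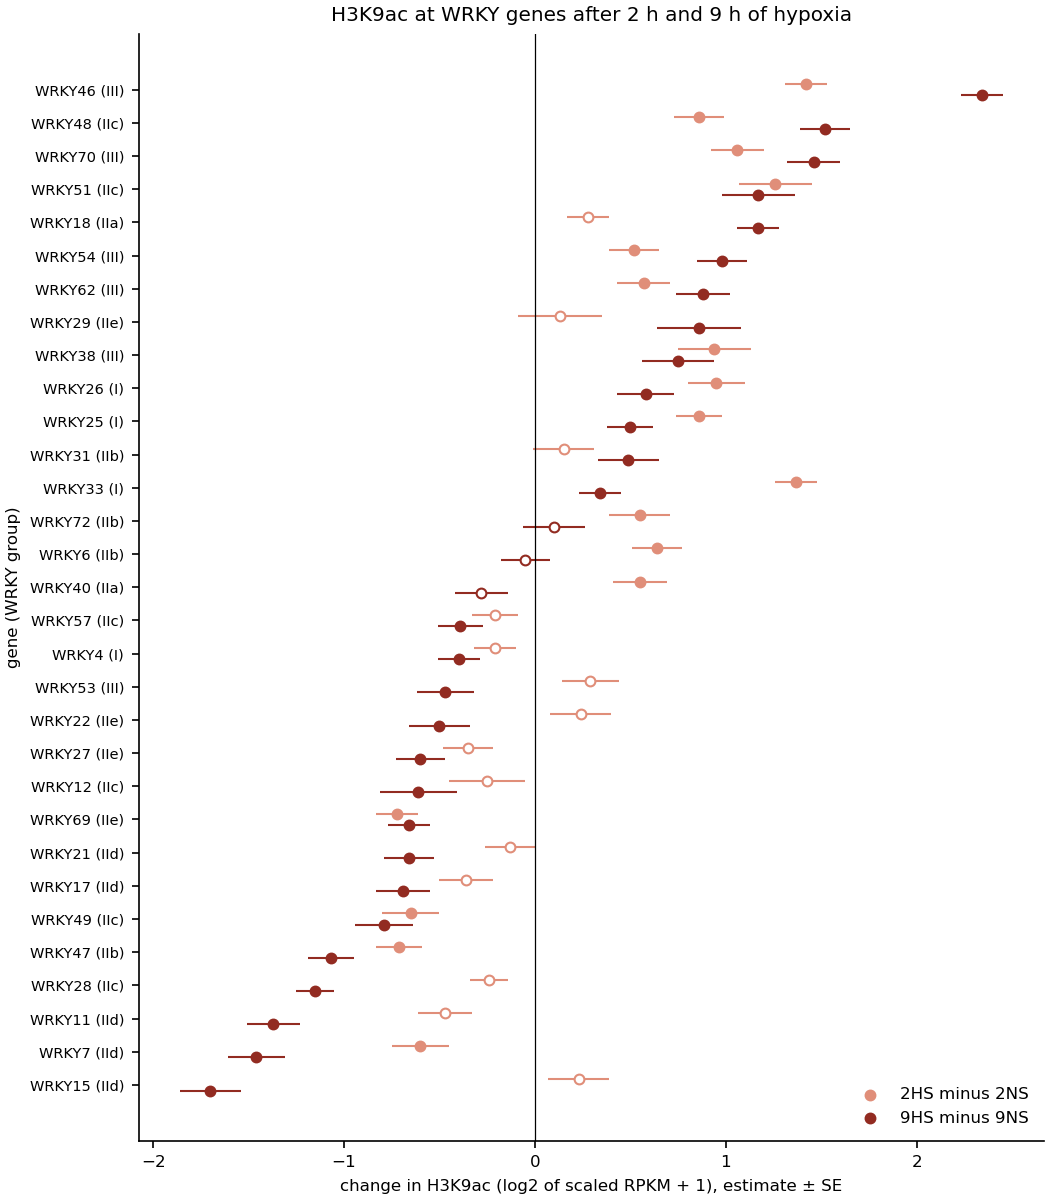
Change in H3K9ac (log2 of scaled RPKM + 1, estimate ± SE) at the WRKY genes that passed at 2 h or 9 h, for 2HS minus 2NS and 9HS minus 9NS; filled points passed limma's test and open points did not. WRKY46 is higher at both times (1.42 and 2.34), and WRKY15, WRKY7 and WRKY11 of group IId lie at -1.37 or lower at 9 h.

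After return to air, many of the genes that rose in hypoxia fell, and some did not pass. Seedlings of 1R and 2R were harvested later after the start of darkness than those of 2NS, so comparisons with 2NS also differ in time. Whether the return to air took place in darkness is not known here. The comparisons of 1R or 2R with 2HS and of 2HS with 2NS share the 2HS libraries. In TRAP RNA after 2 h of air, 7 of 36 rose and 15 fell against 2HS, where 19.5% of all genes rose and 16.3% fell. Unscaled, 10 rose and 12 fell. WRKY70 had 0.408, 0.898 and 1.21 scaled RPKM in 2R, which overlapped the 2NS range given above. WRKY22 had 3.48, 1.37 and 2.80, and WRKY46 had 0.842, 0.417 and 0.694. Against 2HS they fell by 4.59, 3.57 and 3.53 on the log2 scale, and against 2NS they were at 0.10 ± 0.18, 0.17 ± 0.25 and -0.01 ± 0.21 without passing. Of the genes that rose in TRAP RNA at 2 h, WRKY26 (0.00 ± 0.24, adjusted p = 0.99), WRKY48 (-0.32 ± 0.17, adjusted p = 0.17) and WRKY32 (-0.29 ± 0.18, adjusted p = 0.235) did not pass in 2R against 2HS. WRKY11 (-0.38 ± 0.14, adjusted p = 0.0968) and WRKY17 (-0.28 ± 0.17, adjusted p = 0.329) did not pass in poly(A)+ RNA of 1R against 2HS.

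A second set was higher in TRAP RNA after 2 h of air than in 2HS and 2NS. WRKY30, WRKY45 and WRKY53 had 4.07, 3.50 and 3.81, then 6.23, 3.97 and 6.36, then 8.38, 4.39 and 5.43 scaled RPKM in TRAP RNA of 2R. In 2HS WRKY45 had 1.21, 0.831 and 1.02 and WRKY53 had 2.63, 2.45 and 2.50. All 2R libraries lay above those of 2HS and 2NS for these 3 genes. Against 2HS they rose by 1.66 ± 0.19 (adjusted p = 3.92e-05), 1.67 ± 0.25 (adjusted p = 2.99e-04) and 0.97 ± 0.25 (adjusted p = 0.01). Against 2NS they rose by 1.11 ± 0.19 (adjusted p = 0.00563), 1.21 ± 0.25 (adjusted p = 0.0171) and 1.24 ± 0.25 (adjusted p = 0.0161). The later harvest of 2R and reoxygenation cannot be told apart here; WRKY45 also rose in poly(A)+ RNA of 9NS against 2NS, by 1.46 ± 0.24 (adjusted p = 5.67e-04). The last 2 calls were each lost under 3 of 9 omissions of 1 library, with adjusted p of 0.0861 (WRKY45, without the 2R library of 5.10 M reads) and 0.0735 (WRKY53, without that of 3.54 M). WRKY26 also rose and WRKY29 fell against 2NS, which makes 4 of 41 higher and 1 lower, where 2.6% and 1.91% of all genes were; 1 to 3 passed in all without any 2NS library or without the 2R library of 3.54 or 5.10 M reads, and both calls were lost without the 2R library of 5.10 M reads, at adjusted p of 0.156 and 0.112.

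After 1 h of air, nuclear RNA showed 3 WRKY genes that rose and 6 that fell against 2HS among 41, where 2% and 2.25% of all genes did; unscaled, 1 rose and none fell. WRKY18 had 39.6, 24.0 and 34.8 scaled RPKM in nuclear 1R libraries, above every 2HS and 2NS library given above. It rose by 2.68 ± 0.43 against 2HS (adjusted p = 0.00103) and by 2.52 ± 0.43 against 2NS (adjusted p = 0.00905). It was the only WRKY gene of 41 to pass against 2NS, where 0.228% of all genes did; without the 2NS library of 15.5 M reads its adjusted p was 0.0846, and it did not pass without that of 2.22 M reads. WRKY3 had 20.6, 28.8 and 23.4 in 1R and rose by 2.12 ± 0.39 against 2HS (adjusted p = 0.00351). WRKY47 rose by 1.73 ± 0.49 (adjusted p = 0.0491), a call lost under 14 of 15 omissions, with an adjusted p of 0.152 without the 2HS library of 3.04 M reads. WRKY46, AT3G32090, WRKY22, WRKY70, WRKY40 and WRKY33 fell, by 1.63 to 3.00 on the log2 scale. WRKY70 did not pass without the 2HS library of 2.12 M reads (adjusted p = 0.082), nor WRKY22 without that of 3.04 M (adjusted p = 0.0999). Against 2NS 9 of 41 genes were 2-fold apart in the scaled means, where 18.8% of all genes were.

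Poly(A)+ RNA had 2 of 24 that rose and 10 that fell in 1R against 2HS, where 7.82% and 5.25% of all genes did; unscaled, 1 rose and 1 fell. WRKY18 had 6.25, 7.46 and 4.33 scaled RPKM in 1R, against 1.51, 2.94 and 2.26 in 2HS (1.11 ± 0.23, adjusted p = 0.00251). WRKY40 was at 3.21, 3.13 and 3.13 in 1R, between its levels in 2HS and 2NS. It fell by 1.88 ± 0.26 against 2HS (adjusted p = 8.23e-05) and was at 0.69 ± 0.26 against 2NS (adjusted p = 0.0892). Against 2NS 4 of 24 rose and none fell, where 7.07% and 6.51% did: WRKY18 (1.62 ± 0.23, adjusted p = 1.42e-04), WRKY46 (0.94 ± 0.28, adjusted p = 0.0323), WRKY22 (0.86 ± 0.14, adjusted p = 8.15e-04) and WRKY25 (0.83 ± 0.13, adjusted p = 3.9e-04). Without the 9HS library of 12.75 M reads, which shares the fit, 8 genes passed. The call for WRKY46 was lost under 6 of 15 omissions (0.118 without the 1R library of 10.85 M reads). In the scaled means 1 of 26 genes was 2-fold apart from 2NS (16 without scaling), where 3.24% of all genes were.

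Between the air groups, calls at WRKY genes came mostly from poly(A)+ RNA, and few genes of any kind passed in the other assays. The 9NS seedlings were also harvested later in the night, which cannot be told apart from longer darkness. Between 9NS and 2NS, none of 40 passed in nuclear RNA (0.0954% of all genes did), none of 75 in H3K14ac (0.00377%) and 1 of 75 in H3K9ac (1.09%). At an unadjusted p under 0.05 there were 3 WRKY genes in nuclear RNA and 1 in H3K14ac. The gene that passed in H3K9ac was WRKY18, with 14.7 and 15.1 scaled RPKM in 9NS and 25.2 and 22.9 in 2NS (-0.66 ± 0.11, adjusted p = 0.0212; 0.252 without the 2NS library of 10.6 M reads, and lost without any 2NS or 9NS library). In poly(A)+ RNA 3 of 25 rose and 2 fell, where 6.18% and 7.49% of all genes did; 3 passed in all without the 2NS library of 12.45 M reads or the 9NS library of 9.35 or 12.09 M reads. WRKY22 had 4.93, 4.24 and 5.11 in 9NS, against 2.11, 1.72 and 1.16 in 2NS (1.13 ± 0.14, adjusted p = 5.77e-05). WRKY45 had 2.68, 3.23 and 3.13, against 0.474, 0.758 and 0.186 (1.46 ± 0.24, adjusted p = 5.67e-04). WRKY26 rose (0.60 ± 0.17), and WRKY7 (-0.59 ± 0.12) and WRKY6 (-0.53 ± 0.15) fell; WRKY26 did not pass without the 2NS library of 12.45 M reads (adjusted p = 0.0987), nor WRKY6 without the 9NS library of 9.35 M reads (adjusted p = 0.119). In the scaled means 2 of 26 genes were 2-fold apart in poly(A)+ RNA (8 without scaling) and 5 of 41 in nuclear RNA, where 3.73% and 5.72% of all genes were. Unscaled, the median gene was 1.32 higher in 9NS, and 2 genes rose and none fell.

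Promoter peaks were taken from the deposited peak lists, as a peak from -1000 to +100 bases of the start site named in the list. ATAC-seq of root tissue gave 25 WRKY genes with such a peak in the 2NS list, 41 in 2HS, 55 in 1R, 36 in 9HS and 41 in 9NS. As shares these were 33.3%, 54.7%, 73.3%, 48.0% and 54.7%, against 21%, 39.7%, 51.3%, 33% and 38.7% of 27562 RefSeq protein-coding genes. The lists held 14399, 27219, 38958, 21438 and 27065 peaks in the same order, so counts follow the number of peaks called and show no change by themselves. A promoter peak stood in all 5 lists for 22 WRKY genes, WRKY6, WRKY11 and WRKY25 among them, and in none for 19, where 17.8% and 45.2% of all genes did so. WRKY40 had promoter peaks in the 2HS and 1R lists, WRKY46 in 1R only, and WRKY70 in 1R and 9HS.

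HRE2 had 4721 peaks in hypoxic seedlings that overexpressed it, and the list is 1 call for the group, with no input named for it. Of the 75 WRKY genes, 9 had a promoter peak (12.0%, against 4.42% of protein-coding genes): WRKY1, WRKY26, WRKY28, WRKY33, WRKY35, WRKY36, WRKY40, WRKY47 and WRKY71. On the TAIR10 build, the WRKY33 peak was at chr2:16108071-16108226, at -87 bases from the start, and the WRKY40 peak at chr1:30382706-30382861, at -778 bases. WRKY18 had a peak at -1281 bases, at chr4:15381419-15381574, outside the window, and WRKY46, WRKY70 and WRKY22 had none nearest to them. At least 1 base of the 9 promoter peaks overlapped an ATAC peak of 2HS in 7 cases and of 2NS in 4 cases. Over all 1429 HRE2 promoter peaks these shares were 71.1% and 50.0%. The WRKY33 and WRKY40 peaks both overlapped an ATAC peak of 2HS and none of 2NS. ATAC came from roots of another line, so the 2 assays do not describe the same cells.

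**Figure D5:**
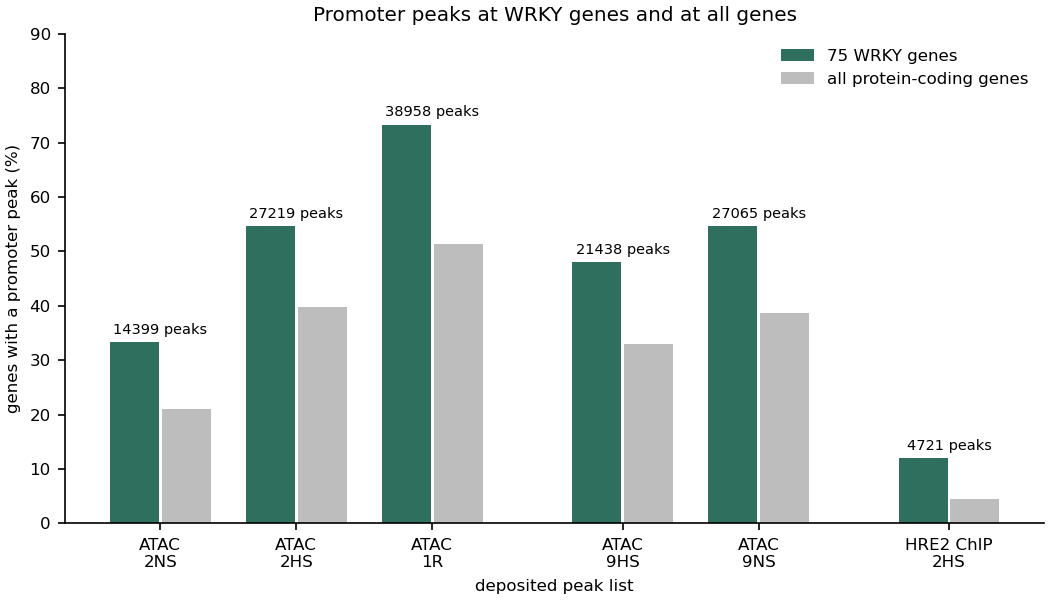
Share of genes with a promoter peak (%) in each deposited list, for the 75 WRKY genes and for all protein-coding genes; the number of peaks in the list stands above each pair. The WRKY share is above that of all genes in each of the 6 lists, and both follow the length of the ATAC lists.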

How the data were processed

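The authors deposited one table of RPKM values, each column being a mean over the libraries of a group per its column names, and lists of peaks with a peak score. Per the submitters' processing notes, Bowtie2, TopHat2 and HOMER were used with TAIR10; no version, counter or strand setting is given in the sources used here, so overlapping, antisense and near-identical genes are uncertain. The deposited score is HOMER's per the file headers; the deposited HRE2 score is 0 throughout and was not used.

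Because a mean RPKM of whole reads can take only certain values, the 10 printed digits gave the total of each library and, for most genes, the reads in each, with gene lengths from RefSeq. This was checked on simulated data. Recovered libraries carry no replicate number. Of the 75 genes, 68 to 75 were resolved per RNA column and 51 to 75 per ChIP column. The authors' means were used where libraries were not resolved, and for such genes in RNA every possible set of reads was tested in turn.

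RPKM was scaled so that the median gene with at least 20 reads had a ratio of 1. limma 3.58.1 in R 4.3.3 (trend) was fitted to log2(scaled RPKM + 1), all groups of an assay sharing one spread, over protein-coding genes whose mean reached 1 RPKM, with Benjamini-Hochberg adjustment and a threshold of 0.05. Differences of 2-fold or more in the scaled authors' means were counted without a test. Tables were made with Python 3.11.15 and pandas 2.3.3. Alternatives were a pseudocount of 0.1 RPKM, no filter, no scaling, each library left out and, added after the data were seen, centring after the log; for peaks, windows from -500 or -2000 and the better-scoring part of each list (ranks above the median).

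WRKY groups are a hand-written table from general knowledge. The 75 genes, the lists and the tests were chosen with earlier results of these data known. Named genes are those that passed, up to the 8 largest per comparison, and 16 well-studied members whether they passed or not; smaller changes are given as counts or ranges. Motifs and sequences are not analysed here, and columns of other samples numbered 0.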

Additional observations from a re-analysis of the deposited data

Results flagged for a closer look

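A test of 9HS minus 9NS against 2HS minus 2NS in the same limma fit, chosen after the data were seen, found 10 differences between the times that passed. It is given on the scaled values only, and a difference can come from the hypoxic groups or from the air groups. Of the genes tested, 2 of 25 WRKY genes passed in poly(A)+ RNA (11.7% of all genes), 8 of 75 in H3K9ac (5.19%), none of 39 in nuclear RNA (0.0276%) and none of 75 in H3K14ac (0.354%).

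In poly(A)+ RNA, WRKY22 rose less at 9 h than at 2 h: 1.40 and 2.94, a difference of -1.55 ± 0.20 (adjusted p = 1.95e-04). WRKY45 was at -0.79 at 9 h and 0.45 at 2 h, a difference of -1.24 ± 0.34 (adjusted p = 0.0262).

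For H3K9ac, WRKY46 and WRKY18 had larger changes against air at 9 h, by 0.92 ± 0.15 (adjusted p = 0.0115) and 0.89 ± 0.16 (adjusted p = 0.0122). The scaled mean of WRKY46 was 41.6 RPKM in 2HS and 72.5 RPKM in 9HS, against 14.9 in 2NS and 13.5 in 9NS. That of WRKY18 was 29.4 RPKM in 2HS and 34.9 RPKM in 9HS, against 24.1 in 2NS and 14.9 in 9NS. WRKY33 was at 0.34 at 9 h and 1.37 at 2 h, a difference of -1.02 ± 0.16 (adjusted p = 0.00866), and WRKY40 at -0.28 at 9 h, where it did not pass, and 0.55 at 2 h, a difference of -0.83 ± 0.20 (adjusted p = 0.0419). The IId genes WRKY15, WRKY11 and WRKY7 were lower at 9 h, by -1.93 ± 0.23 (adjusted p = 0.00357), -0.90 ± 0.20 (adjusted p = 0.0296) and -0.86 ± 0.22 (adjusted p = 0.0455). WRKY28, an activator of salicylate synthesis, differed by -0.91 ± 0.15 (adjusted p = 0.00979).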

How the results depend on the processing

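Of 179 calls named by the tests, 159 kept their call with a pseudocount of 0.1 RPKM, 152 without the filter, 118 without scaling and 163 with centring after the log. With each library left out in turn, 110 kept their call under every omission, and 69 lost it under at least 1. No paired analysis was possible because the recovered libraries carry no replicate number. With the pseudocount of 0.1, the calls were 3 in nuclear 2HS, 3 in nuclear 9HS, 5 in nuclear 1R against 2HS and 0 in 1R against 2NS; 2-fold counts were 2 in H3K4me3, 11 in H3K27me3, 15 in nuclear and 6 in poly(A)+ 1R against 2NS, and 9 in nuclear and 4 in poly(A)+ 9NS against 2NS. Without the filter, calls were 3 in nuclear 9HS and 2 in TRAP 2R against 2NS. Without scaling, calls were 2 in nuclear and 4 in poly(A)+ 2HS, 3 in nuclear 9HS, 1 in nuclear and 2 in poly(A)+ 1R against 2HS, 0 and 2 against 2NS, 8 in TRAP 2R against 2NS and 2 in poly(A)+ 9NS; 2-fold counts in poly(A)+ RNA were 20 for 9HS, 16 for 1R against 2NS and 8 for 9NS.

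Signs turned without scaling in poly(A)+ RNA only: for 9HS, WRKY6 (-0.80), WRKY25 (-1.19), WRKY21 (-1.36), WRKY33 (-0.40), WRKY22 (-0.75), WRKY7 (-1.12), WRKY20 (-0.93), WRKY32 (-1.02), WRKY11 (-1.19) and WRKY75 (-0.65); for 1R against 2HS, WRKY7 (0.10); for 9NS, WRKY6 (0.33) and WRKY7 (0.35). The cause of the unequal scale was not tested. Leaving out 1 library, calls ranged from 4 to 8 (nuclear 2HS), 11 to 18 (TRAP 2HS), 10 to 18 (H3K9ac 2HS), 0 to 22 (H2A.Z), 0 to 10 (H3K27me3), 3 to 9 (nuclear 9HS), 7 to 19 (H3K14ac 9HS), 0 to 1 (nuclear 1R against 2NS), 3 to 8 (poly(A)+ 1R against 2NS), 1 to 7 (TRAP 2R against 2NS), 3 to 6 (poly(A)+ 9NS) and 0 to 2 (H3K9ac 9NS). Among better-scoring peaks, 22 WRKY genes had a promoter peak in the 9HS list (17.9% of all genes) and 13 in 2NS (10.2%); a window from -500 bases left 5 with HRE2 (3.67%). The motif search was not run. The shallowest library, of nuclear RNA in 1R, held 1.05 M reads.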
